A study of Mus musculus with 12 samples.

Results

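The guanylate-binding proteins of the mouse are described here through 8 genes, Gbp2, Gbp3, Gbp4, Gbp5, Gbp6, Gbp7, Gbp8 and Gbp9, out of 48526 gene rows. They were taken from a list of names, matched to the Ensembl identifiers of the count files without their version suffix, and all 8 were found. They were followed in 12 libraries of small-intestinal epithelium from 4 adult female mice aged 3 months. In 2 mice the genes of a pair of histone acetyltransferases, Kat2a and Kat2b, were deleted through 4 daily intraperitoneal injections of tamoxifen at 100 mg/kg in ethanol and corn oil (DKO). The 2 control mice received ethanol and corn oil alone, so genotype and tamoxifen exposure cannot be told apart. The strain, the alleles and the driver of recombination are not given in the sources used here. Epithelium was detached with EDTA from proximal small intestine 2 days after the last injection. Each mouse gave an input library of unselected RNA and pulldown libraries made with J2 and with K1, antibodies that bind double-stranded RNA, which makes 6 groups of 2 libraries.

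Guanylate-binding proteins are large GTPases of the dynamin superfamily that are scarce in resting cells and are made after exposure to interferon, above all interferon gamma, with IRF1 among the transcription factors that drive them. They assemble on vacuoles that hold parasites or bacteria and on the surface of bacteria in the cytosol, damage them, and expose lipopolysaccharide or DNA to caspase-11 and AIM2. Some members, Gbp2 and Gbp5 among them, carry a lipid at their C terminus that anchors them to membranes.

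In GENCODE M21 on GRCm38, the build named in the submitters' processing notes, the family forms 2 clusters. Gbp5, Gbp7, Gbp3 and Gbp2 lie in that order on the plus strand of chromosome 3, between positions 142493978 and 142638008, with Gbp2b between Gbp3 and Gbp2. Gbp8, Gbp9, Gbp4 and Gbp6 lie on the minus strand of chromosome 5, between positions 105014150 and 105293698, beside Gbp10, Gbp11 and the protein-coding model Gm43302. RefSeq promoter windows (GRCm38.p6, 250 bases before to 50 after a gene start) were found for 4 of the 8 members, all on chromosome 3, and the 250 bases before the start are shown because this is where interferon-driven factors are known to act on the family. Windows of Gbp4, Gbp6, Gbp8 and Gbp9 were not used here. Capitals mark matches to the core of the interferon-stimulated response element, GAAANNGAA, which reads as its reverse complement on the strand printed, and to the gamma-activated site, TTCNNNGAA, which reads the same way on both strands.
Gbp5, chr3:142496684-142496933, plus strand: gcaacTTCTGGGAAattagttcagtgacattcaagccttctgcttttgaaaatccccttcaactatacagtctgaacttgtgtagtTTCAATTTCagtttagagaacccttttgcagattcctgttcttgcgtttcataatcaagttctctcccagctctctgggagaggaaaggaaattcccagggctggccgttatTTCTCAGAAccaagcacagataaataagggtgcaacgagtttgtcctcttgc
Gbp7, chr3:142530086-142530335, plus strand: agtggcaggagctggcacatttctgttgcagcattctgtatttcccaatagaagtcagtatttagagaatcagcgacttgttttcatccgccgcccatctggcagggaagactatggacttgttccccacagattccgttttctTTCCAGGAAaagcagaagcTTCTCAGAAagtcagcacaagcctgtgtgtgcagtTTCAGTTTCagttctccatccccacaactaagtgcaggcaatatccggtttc
Gbp3, chr3:142559794-142560043, plus strand: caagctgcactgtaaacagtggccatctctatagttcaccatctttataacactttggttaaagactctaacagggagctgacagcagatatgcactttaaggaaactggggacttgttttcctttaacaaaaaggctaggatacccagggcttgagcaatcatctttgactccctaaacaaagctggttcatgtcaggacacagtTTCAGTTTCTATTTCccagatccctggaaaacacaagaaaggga
Gbp2, chr3:142620413-142620662, plus strand: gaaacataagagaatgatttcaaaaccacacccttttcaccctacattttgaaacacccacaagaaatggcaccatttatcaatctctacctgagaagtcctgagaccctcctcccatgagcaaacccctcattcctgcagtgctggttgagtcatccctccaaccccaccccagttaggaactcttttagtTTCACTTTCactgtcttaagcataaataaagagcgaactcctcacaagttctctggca

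Distances are from RefSeq starts. The printed window of Gbp5 lies wholly inside its GENCODE gene model, which begins at position 142493978. The model of Gbp2 begins at position 142620602, inside its printed window, and the marked core of Gbp2 lies within the model. The response element core began 164 bases before the start of Gbp5, 52 before Gbp7 and 58 before Gbp2. Gbp3 had an overlapping pair, at 44 and 38 bases before its start. Gbp3 has another window, from a later start, and it holds neither motif. Counting that window, 4 of 5 windows of members held the core on either strand, against 8.56% of the 32851 windows of 300 bases in the table. The gamma-activated site was present in 2 of the 5, those of Gbp5 and Gbp7, against 8.3% of all windows, and both motifs in the same 2, against 1.07%. The sites lay 245 and 52 bases before the start of Gbp5 and 106 and 87 before that of Gbp7. The window of Gbp2b, which is not among the members, also held the response element core, 136 bases before its start. These are matches of letters, and no binding was measured.

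Input libraries held 10307281 to 11474107 gene-assigned counts and control pulldowns 13308021 to 16139531. DKO pulldowns held 2220291 to 5826361. Reads with more than 1 alignment were 5.54% to 8.05% of the listed reads in the inputs and control pulldowns, and 15.8% to 46.7% in the DKO pulldowns. As a check of the labels, control input held 359 and 343 counts of Kat2b against 118 and 114 for DKO, and 222 and 228 of Kat2a against 84 and 148. Both fell (log2 fold change -1.51 and -0.88, edgeR adjusted p 6.31e-04 and 0.0205). All 6 epithelial markers were abundant in input. Their summed level was 5635 to 5702 CPM (counts scaled to library size) in control and 4712 to 5764 CPM in DKO. Of the 6, 0 were called, against 35.9% of all genes tested. Closest were Vil1 (log2 fold change -0.49, edgeR adjusted p 0.0608) and Cdh1 (0.43, 0.0988), in opposite directions.

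In input RNA, all 8 members rose in DKO. The family summed to 29.5 and 14.5 CPM in the control animals and to 262 and 137 CPM in the DKO animals, a mean of 22.01 ± 10.6 against 199.7 ± 87.9 (SD, n = 2). The median log2 fold change of the members was 3.03, from 1.42 for Gbp4 to 5.44 for Gbp3, and the median of all 15088 genes tested was -0.00. A gene was called at a Benjamini-Hochberg adjusted p under 0.05 in edgeR's quasi-likelihood test, fitted over all genes. By that rule 35.9% of all genes tested were called and 18.8% were higher in DKO. The values of the genotypes did not overlap, with DKO on top, for 8 of the 8 members and for 34% of all genes. In tissue libraries of this kind, more cells of a type and more RNA per cell cannot be told apart.

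**Figure D1:**
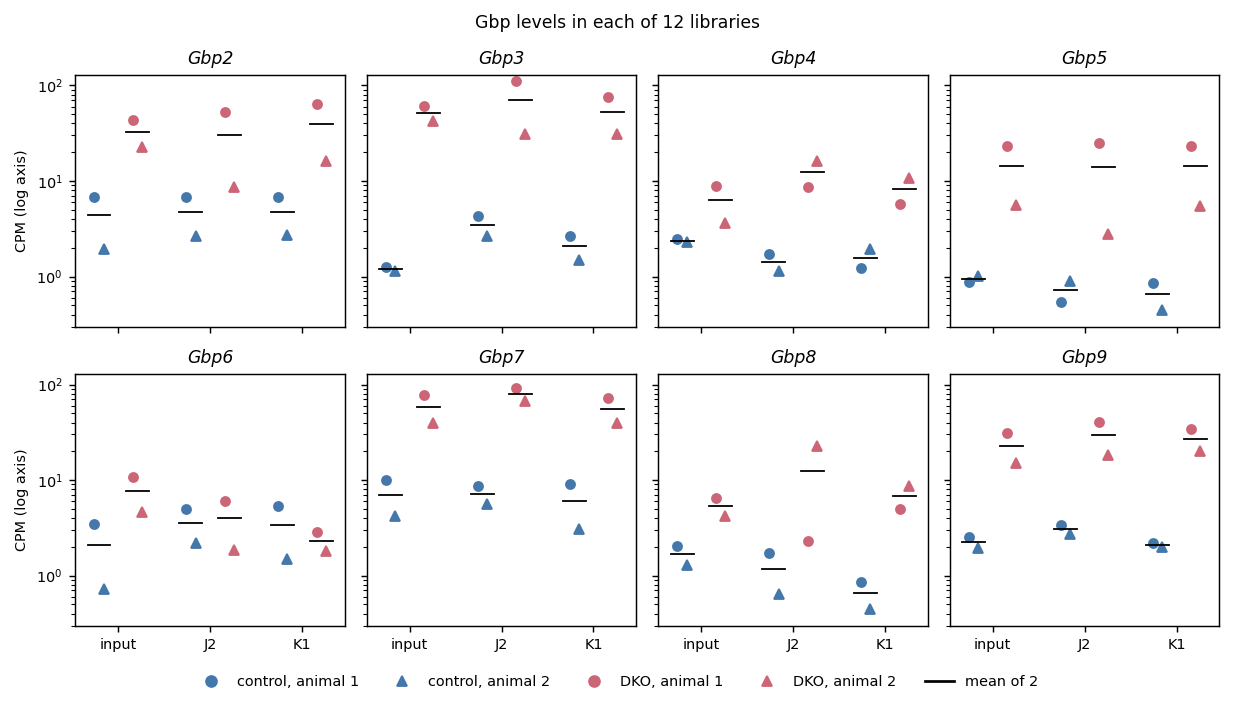
Level of each Gbp gene in CPM (log axis) in the 12 libraries, by kind of library, with circles and triangles for the 2 animals of each genotype and a bar for their mean. The DKO points sit above the control points for all 8 genes in input and for 7 of 8 in J2 and in K1, the exception being Gbp6.

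On chromosome 3, Gbp3 changed most. It had 16 and 16 counts in control input (1.27 and 1.15 CPM) and 729 and 576 in DKO input (60.7 and 42.3 CPM). The values of the control animals were alike, and the gap from the higher control to the lower DKO animal was wider than the spread within either group. The rise was 43.4-fold (log2 5.44, SE 0.26, edgeR adjusted p 5.30e-05). Gbp5, which is known to promote assembly of the NLRP3 inflammasome, had 11 and 14 counts in control and 279 and 77 in DKO, or 0.87 and 1.008 against 23.2 and 5.65 CPM. Its DKO animals differed widely, yet both lay above control, and the log2 fold change was 3.95 (SE 0.71, adjusted p 0.00495). Without the first DKO animal it was 2.62, and Gbp5 was still called.

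Gbp7, which is known for disrupting the vacuole of Toxoplasma, also rose. Control held 125 and 58 counts (9.93 and 4.17 CPM) and DKO 931 and 537 (77.5 and 39.4 CPM), a log2 fold change of 3.10 (SE 0.43, adjusted p 0.00165). A pseudogene model, Gm43802, shares 11.3% of its exon bases. Gbp2, a coat protein of bacterial and parasite vacuoles, had 86 and 27 counts in control (6.83 and 1.94 CPM) and 520 and 307 in DKO (43.3 and 22.5 CPM). Its rise was 7.78-fold (log2 2.96, SE 0.51, adjusted p 0.00402), and its control animals differed by the widest ratio in this cluster. The log2 fold change of Gbp2 was 4.10 without the first control animal, 2.29 without the second and 2.43 without the first DKO animal, and that of Gbp7 ran from 2.54 to 3.83 without an animal. Both genes were called each time. Gbp2b, between Gbp3 and Gbp2, was nearly silent, at 0 to 4 counts in every library, and was not tested.

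On chromosome 5, Gbp9 rose most. It had 32 and 27 counts in control input (2.54 and 1.94 CPM) and 370 and 206 in DKO (30.8 and 15.1 CPM), a log2 fold change of 3.39 (SE 0.38, adjusted p 7.17e-04). Gbp8 and Gbp4 rose less. Gbp8 went from 26 and 18 counts to 78 and 57 (log2 1.70, SE 0.35, adjusted p 0.00839), and Gbp4 from 31 and 32 to 107 and 50 (log2 1.42, SE 0.43, adjusted p 0.0356). Without the first DKO animal the change of Gbp4 was 0.67 and was not called (adjusted p 0.117). The gene models of Gbp4, Gbp8 and Gbp9 overlap and share 60 to 61 exon bases. Their counts summed gave a log2 fold change of 2.49 (adjusted p 0.00145), a sum chosen after seeing the data. Gbp9 gave most of the DKO counts in that sum, so the sum cannot speak for Gbp4 alone.

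Gbp6 was the least certain member. Control input held 44 and 10 counts of it against 130 and 63 for DKO, or 3.497 and 0.72 against 10.8 and 4.62 CPM. The lower DKO animal was close to the higher control animal, and the log2 fold change of 1.92 (SE 0.63) passed narrowly (adjusted p 0.0491). It was not called without the first DKO animal (1.21, adjusted p 0.219), and leaving out the first control animal gave 3.43, the second 1.16. The call was also lost without TMM (1.76, adjusted p 0.0642), with DESeq2 (1.92, 0.216) and in the fit of all 12 libraries (1.88, 0.184). Exons of Gm43302 cover 29.0% of the exon bases of Gbp6, and 69.6% of its longest transcript is near-identical to Gbp10, Gbp4 or Gm43302 (at least 97% identity over at least 100 bases). Gm43302 is listed at 0 in all 12 libraries, Gbp10 at 0 to 3 and Gbp11 at 0 to 2 counts, so how reads were divided among these copies is uncertain. Summed with Gm43302 and Gbp10, Gbp6 had a log2 fold change of 1.96 (adjusted p 0.0445), again a sum chosen after seeing the data.

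Levels of different members were compared per kilobase of exon. In control input, Gbp2 and Gbp7 led with 1.74 ± 1.37 and 1.26 ± 0.73 CPM per kilobase (SD, n = 2). Their libraries overlapped each other, and both libraries of each lay above those of Gbp8, the third. From Gbp8 (0.49 CPM per kilobase) through Gbp9, Gbp3 and Gbp6 to Gbp4 (0.32), each gene overlapped the next in the order, and Gbp5 had the lowest mean, 0.14 ± 0.01, within the range of Gbp6. In DKO input, Gbp3 moved from the fifth place to the first, at 15.8 ± 3.99 CPM per kilobase, followed by Gbp2 (13.1 ± 5.84) and Gbp7 (10.4 ± 4.80). The ranges of these 3 genes overlapped, and both libraries of each lay above those of Gbp9 (4.44 ± 2.14). Gbp5, Gbp8, Gbp6 and Gbp4 came last, at 2.18 to 0.84.

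Expressed as shares of the family's summed level per kilobase, Gbp3 was 8.29% ± 3.87 in control input and 32.9% ± 5.47 in DKO. Gbp2 was 31.4% ± 10.3 in control and 26.2% ± 1.03 in DKO, and Gbp7 24.2% ± 1.41 and 20.8% ± 1.16. Gbp4 was 7.14% ± 3.48 against 1.63% ± 0.33, and Gbp8 10.2% ± 2.26 against 3.20% ± 0.36. Gbp9 held a like share in both, 9.37% ± 3.34 and 8.81% ± 0.71. With only exon bases that no other model covers as the length, Gbp6 took the third place in control and Gbp3 still came first in DKO.

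**Figure D2:**
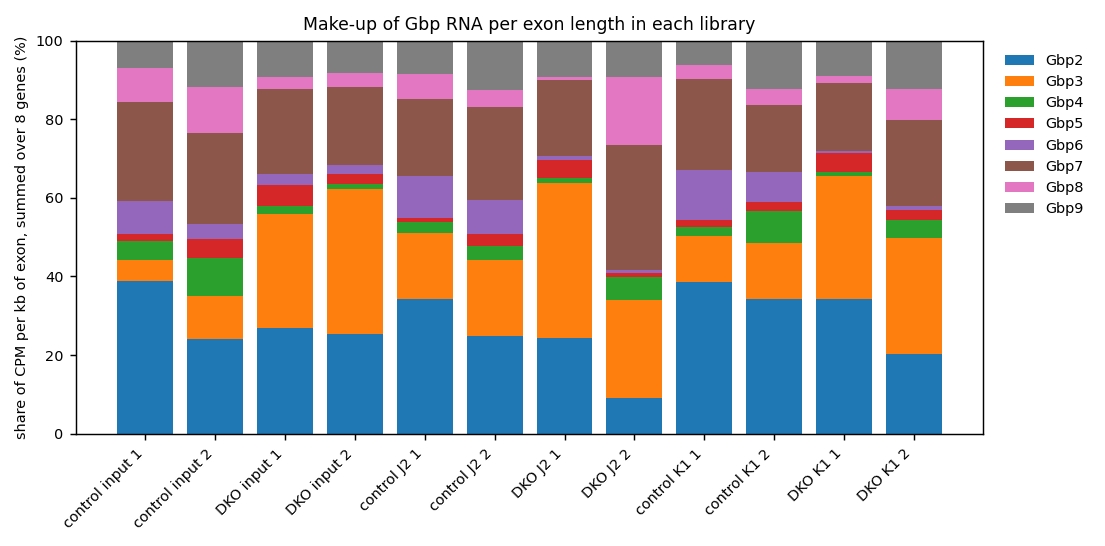
Share of each Gbp gene in the summed CPM per kilobase of exon (%), 1 stacked bar for each of the 12 libraries. In input the share of Gbp3 is 8.29% on average in control and 32.9% in DKO, and the second DKO J2 library stands apart by its share of Gbp8.

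The animals of a genotype differed in the family's level by a similar factor in every kind of library. The first animal of each genotype was 1.73 to 2.14 times the second in summed CPM, in all 6 groups. In input, 7 of 8 members were higher in the first control animal and 8 of 8 in the first DKO animal, against 49.6% and 52.9% of genes with a mean of at least 10 counts. It was 7 of 8 in control J2 (50.4% of genes), 6 of 8 in DKO J2 (55.3%), 7 of 8 in control K1 (46.2%) and 6 of 8 in DKO K1 (61%).

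Within pulldown libraries DKO was again compared with control, which reflects abundance and binding together. In J2, the members' median log2 fold change was 3.38 (0.03 for all genes tested), 4 of 8 were called and all 4 were higher, against 6.04% of all genes. Control J2 libraries held 63 and 33 counts of Gbp3 (4.32 and 2.67 CPM) against 432 and 100 for DKO (110.0 and 30.8 CPM), a log2 fold change of 4.34 (SE 0.70, adjusted p 0.0308). Gbp7 (3.52, SE 0.39), Gbp9 (3.28, SE 0.51) and Gbp4 (3.20, SE 0.60) also rose, with adjusted p of 0.0287, 0.0306 and 0.0374, and without TMM Gbp4 was not called (adjusted p 0.0708). Gbp5 (4.26, SE 1.07, adjusted p 0.0577), Gbp8 (3.47, SE 1.20, 0.106) and Gbp2 (2.69, SE 0.91, 0.103) had large differences that did not pass. Their DKO libraries were far apart, at 24.95 and 2.77 CPM for Gbp5, 2.29 and 22.5 CPM for Gbp8 and 52.4 and 8.63 CPM for Gbp2. The DKO values exceeded those of control in both animals for 7 of 8 members, as for 29.6% of all genes. Without either control animal only Gbp3 was called. With an animal left out, the log2 fold change of Gbp5 ran from 2.03 to 5.18. That of Gbp8 was 4.28 without the first DKO animal and 0.98 without the second. That of Gbp2 was 3.502 without the second DKO animal and 0.92 without the first.

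In K1, 7 of 8 members rose, against 13.1% of all genes called higher, with a median of 3.416 (all genes -0.02). Control K1 libraries held 43 and 20 counts of Gbp3 (2.65 and 1.49 CPM) against 320 and 68 for DKO (75.9 and 30.7 CPM), a log2 fold change of 4.84 (SE 0.51, adjusted p 0.00220). Gbp5 followed at 4.60 (SE 0.72), then Gbp9 at 3.86 (SE 0.38), Gbp8 at 3.49 (SE 0.63), Gbp7 at 3.34 (SE 0.54), Gbp2 at 3.21 (SE 0.65) and Gbp4 at 2.55 (SE 0.57), with a highest adjusted p of 0.0180. The call of Gbp4 was lost without either control animal (adjusted p 0.181 and 0.0744), and that of Gbp8 without the second control animal (0.0879). Gbp2 was 1.98 without the first DKO animal. No DKO value was as low as any control value for 7 of 8 members, as for 24.9% of all genes.

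Gbp6 was the member without a rise in the pulldowns. J2 libraries held 73 and 27 counts of it for control against 24 and 6 for DKO, which is 5.00 and 2.18 against 6.11 and 1.85 CPM. K1 libraries held 87 and 20 against 12 and 4, or 5.36 and 1.49 against 2.85 and 1.81 CPM. The genotypes overlapped with both antibodies. The log2 fold changes were 0.19 in J2 (95% interval -1.62 to 2.00, adjusted p 0.872) and -0.35 in K1 (-2.11 to 1.41, adjusted p 0.758), and leaving out an animal gave values of either sign. Gbp6 is also the member with most near-identical sequence, and the DKO pulldowns had the largest share of reads with more than 1 alignment. The part of either in the result was not tested.

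**Figure D3:**
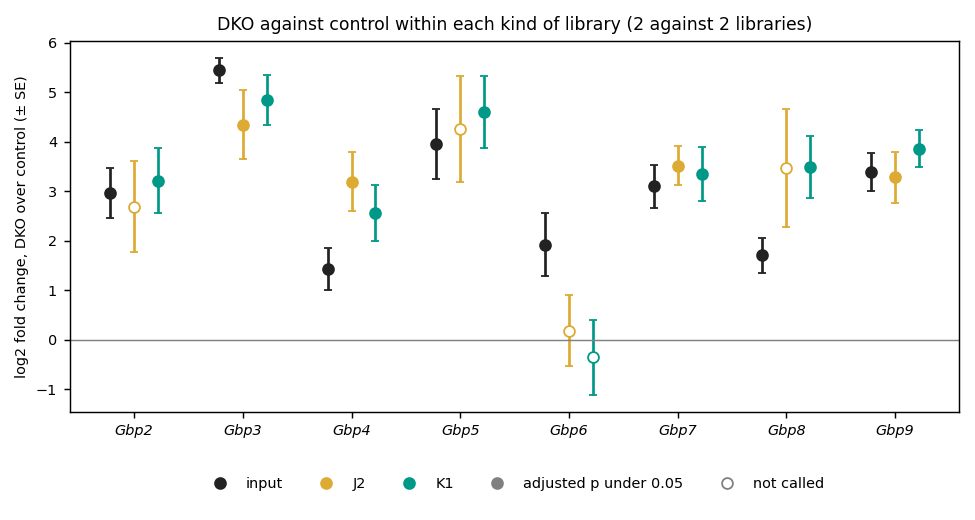
Log2 fold change of DKO over control for each Gbp gene within input, J2 and K1 libraries, with SE bars (2 against 2 libraries) and open symbols where the adjusted p was not under 0.05. The input values run from 1.42 to 5.44, and Gbp6 is near 0 in both kinds of pulldown.

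Binding by the antibodies was measured as pulldown against input of the same genotype. In the main fit, which does not pair the libraries of an animal, no member was called in either direction. Calls of a fit that pairs them are given below. In control, J2 called 0 of 8 members (29.8% of all genes tested) and K1 0 of 8 (39.8%). In DKO, J2 called 0 of 8 (25.7%) and K1 0 of 8 (35.6%). At an unadjusted p under 0.05 there was 1 member in each control comparison and 0 in each DKO comparison, and DESeq2 called 1, in K1 against input of control. The members' median log2 enrichment by J2 was 0.08 in control (all genes -0.07) and 0.43 in DKO (all genes 0.10). By K1 it was -0.21 in control (all genes 0.00) and 0.10 in DKO (all genes -0.14).

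The members closest to a call were Gbp3 and Gbp8 in control. Per animal, log2 CPM of Gbp3 was 1.62 and 1.09 higher in J2 than in the input of the same animal, and the fitted enrichment was 1.53 (95% interval 0.07 to 3.00, adjusted p 0.104). Gbp8 was lower in K1 than in input by similar amounts in both control animals, with differences of -1.10 and -1.21, and the fitted value was -1.39 (-2.53 to -0.24, adjusted p 0.0549). With the animal as block, which pairs each pulldown with its own input, both passed (Gbp3 1.497, adjusted p 0.0450, and Gbp8 -1.43, adjusted p 0.0337). With an animal left out, the enrichment of Gbp3 in control J2 ran from 1.22 to 1.78. That of Gbp8 in control K1 ran from -1.60 to -1.30. In DKO the block added Gbp6, lower in K1 than in input (-1.83, adjusted p 0.00371, and -1.73 with adjusted p 0.143 without the block). Gbp9 was the most even member, between -0.18 and 0.46 in all 8 pairs of pulldown and input.

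**Figure D4:**
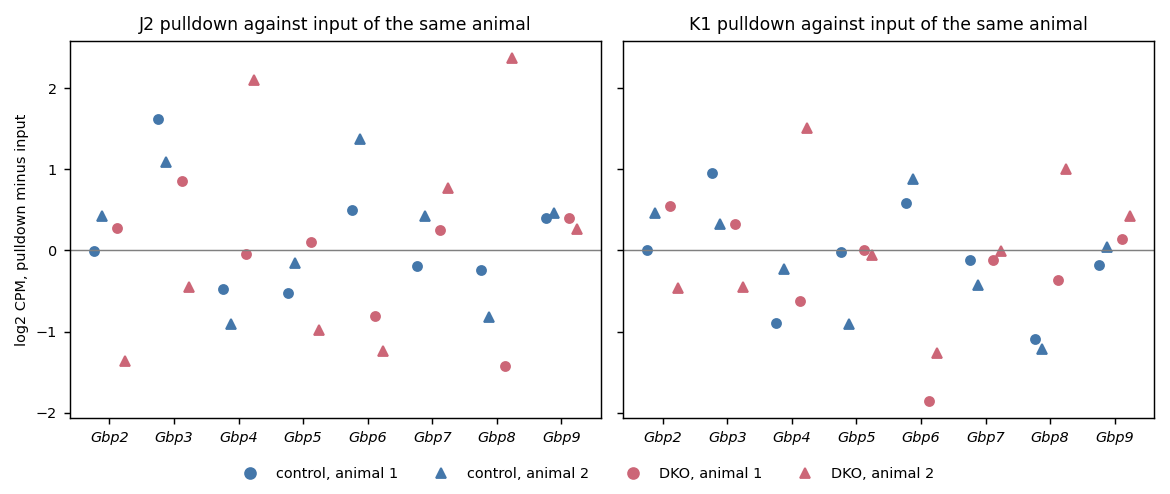
Log2 CPM in the J2 (left) and K1 (right) pulldown minus that in the input of the same animal, for each Gbp gene in the 4 animals. Values of DKO animals spread more widely than those of control animals for Gbp2, Gbp4 and Gbp8. With both antibodies, both DKO animals are below both control animals for Gbp6 and for Gbp3, narrowly for Gbp3 in K1.

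The difference of enrichment, DKO minus control, asks whether double-stranded RNA of these genes was captured more in DKO after allowing for their level. In the fit without the animal block, 0 of 8 members were called for J2, against 2.71% of all genes. For K1 it was 0 of 8, against 5.47%. For each antibody 1 member had an unadjusted p under 0.05, Gbp4 for J2 and Gbp8 for K1, and DESeq2 called 0. The median was 0.15 for J2 and 0.25 for K1, beside 0.00 and -0.20 for all genes. The intervals were wide. For Gbp3, the member that rose most in input, the difference was -1.05 (95% interval -2.92 to 0.82) for J2 and -0.72 (-2.13 to 0.70) for K1, and for Gbp7 it was 0.44 (-1.09 to 1.97) and 0.12 (-1.54 to 1.79).

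Gbp6 had the largest differences downward. In J2 the control animals had pulldown minus input values of 0.49 and 1.38 against -0.81 and -1.24 for DKO, and in K1 0.59 and 0.88 against -1.86 and -1.27. The genotypes did not overlap for either antibody. The share of all genes without overlap in this measure was not counted. Gbp3 did not overlap in J2, with 1.62 and 1.09 in control against 0.86 and -0.45 in DKO. In K1 the lower control animal had 0.3218 for Gbp3 and the higher DKO animal 0.3216, which is hardly a gap. For Gbp6 the fitted differences were -1.69 (95% interval -4.33 to 0.96, adjusted p 0.382) for J2 and -2.39 (-4.91 to 0.12, adjusted p 0.235) for K1. With the animal as block, Gbp6 passed for K1 (-2.51, adjusted p 0.0104) and not for J2 (-1.92, adjusted p 0.119). The DKO values rest on 4 to 24 counts per pulldown library, and with all libraries thinned to the depth of the smallest the K1 difference was -1.15 (adjusted p 0.729).

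Gbp4 and Gbp8 had the largest differences upward. In J2 the high values were those of the second DKO animal. With this antibody, pulldown minus input of Gbp8 was -1.43 in the first DKO animal and 2.37 in the second, with -0.24 and -0.82 in control. That of Gbp4 was -0.04 and 2.10, with -0.48 and -0.91 in control. The second DKO J2 library had 73 counts of Gbp8 and 53 of Gbp4, the first 9 and 34, although it was the deeper library. The fitted J2 differences were 1.74 for Gbp4 (95% interval 0.05 to 3.43, adjusted p 0.184) and 1.70 for Gbp8 (-1.19 to 4.58, adjusted p 0.419). Without the second DKO animal the J2 difference of Gbp4 was 0.69. Without the first DKO animal the J2 differences were 2.88 for Gbp4, 2.89 for Gbp8 and -1.99 for Gbp3. The K1 difference of Gbp4 was then 2.11. Enrichment over input without the first DKO animal was 2.04 for Gbp4 and 2.31 for Gbp8 in DKO J2. It was 1.41 for Gbp4 in DKO K1 and -0.84 for Gbp4 in control J2. Without the second DKO animal, enrichment of Gbp3 in DKO J2 was 0.88. These fits leave 1 DKO library of each kind. In K1, pulldown minus input of Gbp8 was -0.37 and 1.00 in the DKO animals, above both control animals (-1.10 and -1.21), and that of Gbp4 was -0.63 and 1.51, against -0.90 and -0.23. For K1 the differences with all animals were 0.94 for Gbp4 (adjusted p 0.457) and 1.60 for Gbp8 (0.192), the latter 0.90 to 2.28 without an animal.

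Genes that act with the family were read from input. Transcripts of interferons themselves were rare. Ifng had 0 and 2 counts in control and 0 and 0 in DKO, and Ifnb1 and Ifna4 were at 0 in all 4 input libraries, where a count of 0 allows up to 3 counts. Ifnl2, Ifnl3 and Ifne had 0 to 3 counts. The only ligand tested of 7, Ifnk, fell from 25 and 33 counts to 9 and 16 (log2 -1.12, SE 0.36, adjusted p 0.0438).

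Among all genes tested in input, 18.8% were called higher and 35.9% in either direction. Of 11 listed genes of interferon signalling and response, 6 rose and 2 fell in input, with a median of 0.59. Nlrc5, a transactivator of MHC class I genes, rose by a log2 fold change of 2.62 (SE 0.46), Stat2 by 2.18 (SE 0.20) and Irf9, its partner, by 1.43 (SE 0.12). The receptor chain gene Ifngr1 (0.71, SE 0.14) and Jak1 (0.59, SE 0.13) rose less. Irf1, the transcription factor best known for driving Gbp genes, fell from 1944 and 1651 counts to 963 and 1024, a log2 fold change of -0.78 (SE 0.15, adjusted p 0.00709). Irf8 fell as well (-0.68, SE 0.19, adjusted p 0.0261). The genotypes did not overlap for Irf1. Its part in the changes of the Gbp genes was not tested, and its protein was not measured. Of 5 feedback inhibitors of the pathway, 3 rose: Usp18 (4.04, SE 0.46), Socs3 (2.59, SE 0.20) and Socs1 (2.51, SE 0.21).

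The immunity-related GTPases, which load onto pathogen vacuoles together with Gbp proteins, had 5 of 6 members higher, against 18.8% of all genes tested. Their median was 1.85. Iigp1 rose by 5.21 (SE 0.58), Irgm1, a regulator of the group, by 2.47 (SE 0.36) and Tgtp1, whose count is uncertain beside its near-identical copy Tgtp2, by 2.07 (SE 0.49), while Igtp did not pass (1.15, SE 0.57, adjusted p 0.156). Of 8 genes of the caspase-11 and inflammasome branch 6 were tested, with a median of 0.01. Casp4, which encodes mouse caspase-11, rose by 1.53 (SE 0.16), and Aim2, the sensor of cytosolic DNA, by 1.169 (SE 0.29). Pycard, the adaptor ASC of inflammasomes, fell from 621 and 668 counts to 88 and 106, a log2 fold change of -2.65 (SE 0.13, adjusted p 5.67e-05), and was also lower in J2 (-4.10) and K1 (-3.90). Its exons share 12.8% of their bases with Gm45205. Nlrp3 and Il1b were not tested, and Casp1, Gsdmd (the pore-forming gasdermin D) and Il18 were between -0.29 and 0.15 and not called.

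Among all genes tested in input, 18.8% were called higher. Of 13 listed genes of ubiquitin and ubiquitin-like conjugation, which steers Gbp proteins to vacuoles, 6 rose and 0 fell, with a median of 0.39. Their changes were small beside those of the family: Gabarapl1 1.15 (SE 0.20), Trim21 0.99 (SE 0.23), Traf6 0.97 (SE 0.12), Map1lc3a 0.80, Atg12 0.46 and Atg3 0.39. The 5 enzymes of prenylation, which attach the membrane anchor, ran from -0.20 to 0.24 with a median of 0.12, and edgeR called 0 of them, with 0 at an unadjusted p under 0.05. The share of all genes called was 35.9% in this comparison.

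**Figure D5:**
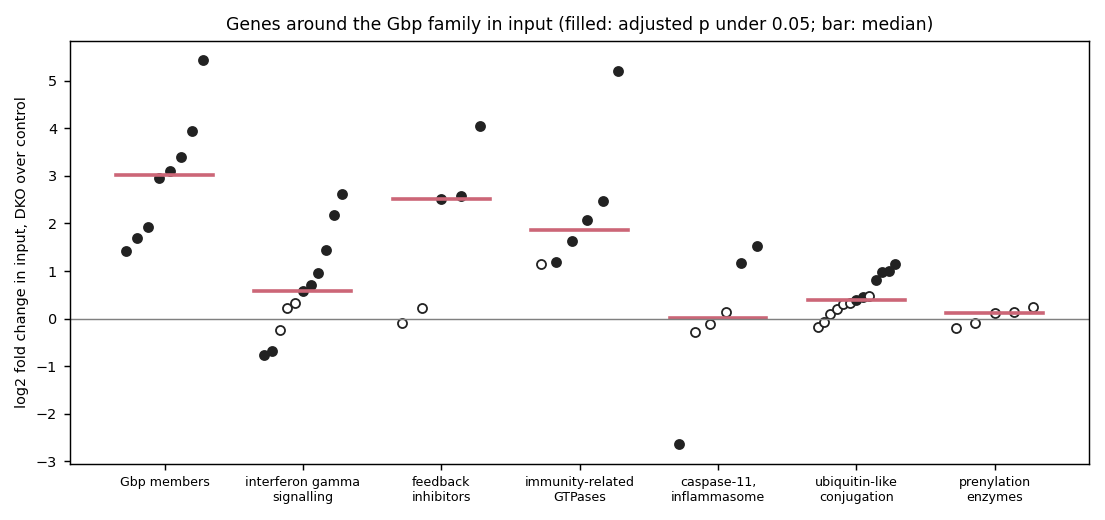
Log2 fold change of DKO over control in input for the 8 Gbp genes and for 6 lists of genes that act with them, 1 point per gene tested, filled where the adjusted p was under 0.05, with the list's median as a bar. The Gbp median is 3.03, that of the immunity-related GTPases 1.85 and that of prenylation enzymes 0.12.

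Markers of other cells that make Gbp proteins were read in the same input libraries. Of all 15088 genes tested there, 2841 were called higher in DKO and 2580 lower. Markers of T cells and intraepithelial lymphocytes summed to 132 CPM in both control animals and to 81.8 and 91.9 CPM in DKO, with 5 of 7 called lower. Macrophage markers summed to 4.32 to 4.45 CPM in control and 13.4 to 22.3 CPM in DKO. Of that list 3 of 6 genes rose, Mrc1 (7 and 8 counts against 134 and 102), Csf1r (8 and 7 against 67 and 27) and Cd68, while Adgre1 and Cx3cr1 stayed at 0 to 5 counts and Itgam was not called. B and plasma cell markers summed to 1.87 to 2.07 CPM in control and 2.50 to 4.83 CPM in DKO, and fibroblast markers to 0.64 to 2.74 and 2.20 to 4.16 CPM. Endothelial markers summed to 1.35 to 1.51 CPM in control and 8.15 to 14.9 CPM in DKO. Of these 5 genes only Tie1 was called (0 and 0 counts against 152 and 97), and Cdh5, Kdr and Emcn had 0 to 1 counts. The part of these cells in the rise of the Gbp genes was not tested.

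Across the 12 libraries, log2 CPM of members were more alike for some pairs of members than for others. Pearson's r between Gbp3 and Gbp9 was 0.987, between Gbp7 and Gbp9 0.971 and between Gbp4 and Gbp8 0.895. Gbp6 had r of 0.11 to 0.64 with the other members, and Gbp8 had 0.57 with Gbp2 and 0.59 with Gbp5. These libraries share 4 animals and a large difference between genotypes, so the values describe the pattern only. Among 9368 genes outside the family with a mean of at least 50 counts, those most like the mean of the 8 members were Cxcl10 (r = 0.991, a chemokine for T cells), Rsad2 (0.990, the antiviral protein viperin), Mlkl (0.988, the executor of necroptosis), Nod2 (0.987), H2-Q6 (0.986), Ddx60 (0.986), Ifit2 (0.985) and Usp18 (0.985).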

How the data were processed

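Deposited values are read counts per gene, made by the authors without strand per the labels and listed in 1 file per library. The submitters' processing notes name STAR 2.7.10b, UMI-tools 1.1.4, HTSeq 2.0.2 and the builds mm10 and GRCm38.p4, and the annotation release is not given in the sources used here. Closing rows for unassigned reads (no feature 6.76% to 27.0%, ambiguous 3.65% to 6.11% of listed reads) entered neither library sizes nor tests.

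Tests used the quasi-likelihood fit of edgeR 4.0.16 under R 4.3.3 (TMM scaling, filterByExpr count minimum 10, Benjamini-Hochberg adjustment over all genes tested, threshold 0.05). DKO was compared with control within a kind of library (4 libraries, 2 residual degrees of freedom). Pulldown against input, and its difference between genotypes as an interaction, were fitted on 8 libraries (4 residual degrees of freedom). SE is the absolute log2 fold change over the square root of F, and intervals are 95%. All single-gene p-values come from these fits unless another tool is named. The exact two-sided permutation test of 2 against 2 cannot go below 0.333 and was not used. CPM used TMM over all 12 libraries, and log2 CPM a prior count of 2. All 8 members passed the filter in each fit. Scripts were tested on simulated data.

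Sequence overlap came from GENCODE M21, near-identity from blastn 2.17.0+. The 4 mice are separate animals per the labels. Input and pulldowns of a genotype with the same replicate number were taken as 1 animal. These libraries deviated together (r of deviations 0.208 to 0.494), so the animal block pairs them. The members, the named genes (all members, the 8 most alike in pattern and listed partners) and the lists were chosen with earlier results of these data known. Some listed genes are counted but not reported by name here. Alternatives were other scaling, no filter, DESeq2 1.42.0, one fit of all 12 libraries, thinning, the block, and leaving out each animal.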

Additional observations from a re-analysis of the deposited data

How the results depend on the processing

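Every member kept its direction in input and, Gbp6 aside, in J2 and K1 under each alternative that could be fitted, and no call reversed. For DKO against control in input, the fit of all 12 libraries called 4 of 8 members (Gbp3, Gbp5, Gbp7 and Gbp9), and leaving out an animal gave 6 to 8. In J2 the count of 4 became 7 without the filter, 7 with DESeq2, 7 in the fit of all 12 libraries and 7 with the replicate number as block, and 1 to 6 without an animal. In K1 it was 5 to 7 without an animal. Same-numbered animals of the genotypes share only a number (r of deviations 0.03 in input, -0.09 in J2 and -0.10 in K1). For pulldown against input, where no member was called, 1 member was called for J2 in control without the filter and with the replicate block (0 to 2 without an animal), and 0 to 2 for J2 in DKO without an animal. For K1 in control it was 1 with DESeq2 size factors, without TMM, without the filter, with DESeq2 and with the replicate block (0 to 1 without an animal), and for K1 in DKO 1 without the filter and with the replicate block (0 to 1 without an animal). For the difference of enrichment it was 1 for J2 without the filter (0 to 3 without an animal) and 1 for K1 without the filter and with the replicate block (0 to 1 without an animal). The block changed no other call of a member in the pulldown fits. The cause of these changes was not tested, and a genotype left with 1 animal is assumed to vary like the other groups.

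Over all genes, the count called in input was 5421, and 1675 in the fit of all 12 libraries. In J2 it was 1609, and 4273 without the filter, 2884 with DESeq2 and 5993 in the fit of all 12. Thinning moved the pulldown counts in control from 4746 to 2694 (J2) and from 6324 to 3001 (K1), and in DKO from 4088 to 2388 (J2) and from 5659 to 3475 (K1). The J2 difference was called for 432 genes, and for 0 with the block (4074 at an unadjusted p under 0.05), 672 without TMM, 2453 without the filter, 2018 with DESeq2, 899 in the fit of all 12 and 283 after thinning. The K1 difference was called for 870, and for 1912 with the block, 523 with DESeq2 size factors, 1309 without TMM, 1763 without the filter, 59 in the fit of all 12 and 252 after thinning. Without an animal these counts ran from 177 to 8635 in J2, 1150 to 5819 in K1, 0 to 10140 and 346 to 7790 for J2 against input in control and DKO, 281 to 9191 and 3005 to 5970 for K1 against input, 0 to 6990 for the J2 difference and 0 to 3803 for the K1 difference. Without TMM the median of all genes was -0.13 in input, and the share of calls that were higher was 42.1% in place of 52.4% in input, 32.6% in place of 49.5% in J2 and 27.4% in place of 48.6% in K1. After thinning, Gbp5 and Gbp8 in J2 and Gbp4 and Gbp6 in K1 fell under the filter and were not fitted. Depth limits the DKO pulldowns, where the members had 4 to 432 counts.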
